A study of Rattus norvegicus with 6 samples.

Results

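The genes described here are the cytoplasmic actins and a set of proteins that bind actin monomers or build and cut actin filaments, measured in rat neural stem/progenitor cells (NSPCs) on carbon films of different electrical conductivity. The members were the rows carrying 1 of 10 gene symbols, namely the actins Actb and Actg1, the thymosins Tmsb4x and Tmsb10, the profilins Pfn1 and Pfn2, the cofilin Cfl1, and Actr2, Actr3 and Arpc2 of the Arp2/3 complex. They took 11 of the 17048 rows of each count table, because Actg1 stood in 2 rows, and all 11 were among the 7729 rows tested. The cells were wild-type NSPCs from embryonic rat telencephalon, which can give rise to neurons, astrocytes and oligodendrocytes. They were kept for 24 h in medium that maintains stemness on a “High”, “Medium” or “Low” conductive carbon film of carbon nanotubes and graphene oxide nanoribbons. Each film had 2 libraries, and all groups shared the same cells, medium and time, so that the High film served as the reference. The films were made with different oxidation times. In its adhesion and differentiation assays the study coated them with laminin over a poly-D-lysine amount adjusted to the film. The methods do not state the coating used for these libraries. Neither the labels nor the methods say whether the 2 libraries of a film came from separate cultures, so p-values measure the spread between these libraries, which may be technical.

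Actin exists as single globular subunits and as filaments assembled from them, and cells shift subunits between these pools to spread, migrate and extend processes. Thymosins hold subunits in reserve, profilins charge them and deliver them to growing ends, cofilin severs old filaments, and the Arp2/3 complex starts new filaments as branches on existing ones. In neural progenitors and young neurons this cycle drives cell shape, division and the advance of growth cones.

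The libraries held from 5124863 to 6213676 counts, and the member rows together took from 0.501% to 1.13% of them. The ribosomal RNA share was 26.1% and 38.4% on High and lay between 7.16% and 13.0% on Medium and Low (95% Wilson intervals within 0.041 points, which cover counting error only). The values below are CPM (counts scaled to a common library size) with edgeR's TMM factors, which ran from 0.778 to 1.14. All 8 progenitor markers were detected. Their summed level was 3298 to 3584 CPM on High, 5656 to 5679 on Medium and 4749 to 6477 on Low, higher on the same films as Actg1 below. The markers did not all go this way. For Low and Medium averaged against High, 6 had positive log2 fold changes and 2 had negative ones, down to -0.82. The part of the marker level and of the ribosomal share in the results was not tested. Of the markers of other cells, microglial ones summed to between 0 and 7.07 CPM with 3 of 5 at 0 throughout (Csf1r, C1qa, Cx3cr1) and astrocyte ones to between 7.50 and 72.5 CPM with 2 of 4 at 0 (Aqp4, Aldh1l1). Oligodendrocyte lineage markers summed to between 153 and 401 CPM with 1 of 5 at 0 (Sox10). Neuronal markers, with 1 of 6 at 0 (Rbfox3), summed to 12.3 and 12.6 CPM on High, 0.171 and 0.980 on Medium, and 29.6 and 33.8 on Low. Meningeal, vascular and smooth muscle markers, with 5 of 9 at 0 (Pecam1, Cldn5, Pdgfrb, Dcn, Lum), summed to 103 and 136 CPM on High, 14.9 and 327 on Medium, and 51.9 and 20.2 on Low. The part of these markers in the results was not tested either. Medium replicate 1 stood apart with 5355 rows holding a count, against 6689 to 7809 in the other 5 libraries, and without it the log2 fold changes of Low and Medium averaged against High were 1.07 for the first Actg1 row, -0.76 for Actb, 0.85 for Tmsb4x and 1.03 for Tmsb10. In bulk RNA, fewer cells of a type and less RNA per cell cannot be told apart.

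The promoters of Actg1, Tmsb4x and Tmsb10 are shown because these were the members that were higher in all 4 libraries from Low and Medium films than in either High library. Each is the RefSeq sequence on assembly GRCr8 from 250 bases before to 50 bases after the gene start, 5′ to 3′ on the gene's strand, at chr10:106120902-106121201 (minus strand) for Actg1, chrX:30761361-30761660 (plus) for Tmsb4x and chr4:106569091-106569390 (minus) for Tmsb10. The counts themselves were made on rn6. Capitals mark matches on either strand to the CArG box, the element bound by serum response factor (SRF), and to the motifs CCAAT, the core element TATAAA and the element GGGCGG, which are common in promoters.
Actg1: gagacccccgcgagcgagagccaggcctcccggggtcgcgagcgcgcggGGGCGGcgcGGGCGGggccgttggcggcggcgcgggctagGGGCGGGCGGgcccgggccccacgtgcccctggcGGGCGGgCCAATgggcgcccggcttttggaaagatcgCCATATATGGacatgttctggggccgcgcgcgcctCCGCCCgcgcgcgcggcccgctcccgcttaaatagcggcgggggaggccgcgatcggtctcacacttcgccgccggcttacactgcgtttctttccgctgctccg
Tmsb4x: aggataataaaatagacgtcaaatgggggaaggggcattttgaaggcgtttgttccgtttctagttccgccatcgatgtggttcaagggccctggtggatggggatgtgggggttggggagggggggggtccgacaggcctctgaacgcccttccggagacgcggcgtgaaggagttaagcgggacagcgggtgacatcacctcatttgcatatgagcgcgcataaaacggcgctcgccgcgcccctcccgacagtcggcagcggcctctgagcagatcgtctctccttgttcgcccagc
Tmsb10: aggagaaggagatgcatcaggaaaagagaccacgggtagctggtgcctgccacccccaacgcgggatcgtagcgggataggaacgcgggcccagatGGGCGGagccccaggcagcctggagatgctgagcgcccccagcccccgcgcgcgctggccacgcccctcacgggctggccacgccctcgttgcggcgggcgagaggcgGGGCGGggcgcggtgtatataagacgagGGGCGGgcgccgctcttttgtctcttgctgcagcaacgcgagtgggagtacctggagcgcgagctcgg

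Of the 10 members, 9 had a promoter in the RefSeq table, and Actb had none there. A CArG box was present in that of Actg1 alone among these 9, from -90 to -81 relative to the start, against 1.64% of all 33469 promoters of this length. The Actg1 promoter also held a CCAAT at -120 and 6 matches to GGGCGG, 2 of which overlap. Tmsb10 had 3 matches to GGGCGG, and Tmsb4x had no match to any of the 4 motifs. These motifs were not particular to the members shown. GGGCGG was also present in the promoters of Pfn1, Pfn2, Cfl1, Actr2, Actr3 and Arpc2, and CCAAT in those of Cfl1 and Actr2. Over all promoters, CCAAT was found in 37.5%, GGGCGG in 33.1% and TATAAA in 14.2%. These matches describe the sequence and were not tested as binding sites.

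The cytoplasmic actins lay on opposite sides of their High level on the other films, although no member passed an adjusted p of 0.05 in the reported test. Actg1, the gamma actin, was about 2.10-fold higher on the Low and Medium films than on High, and its replicates differed by at most 1.07-fold. Actb, the beta actin, was lower on these films by comparison, at 0.525 of its High level. Tmsb10 and Tmsb4x, which bind actin subunits, were 2.28-fold and 1.71-fold higher. Profilins, cofilin and Arp2/3 subunits showed no such common direction, and several of them differed as much between replicates as between films.

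No member row passed an adjusted p of 0.05 over all rows for Low and Medium averaged against High by edgeR quasi-likelihood (0 of 11, where 0.129% of all rows passed). At an unadjusted p under 0.05, 4 rows were higher and 1 was lower (Actb), against 2.69% and 2.81% of all rows. The higher rows were Tmsb4x, Tmsb10 and both Actg1 rows, which are not independent. At an adjusted p under 0.05, DESeq2 called these same 4 rows, where it called 4.85% of all rows. Among the members limma-voom called the 2 Actg1 rows alone, where it called 0.298% of all rows. The median log2 fold change over the 11 rows was 0.20, beside -0.12 over all rows tested, but it counts Actg1 2 times. With 1 Actg1 row the middle 2 genes were Cfl1 at -0.37 and Arpc2 at 0.20. With the groups read as ranges, the 4 rows of Actg1, Tmsb4x and Tmsb10 lay higher in all 4 libraries from Low and Medium films than in either High library. Of all rows, 8.06% did. Another 2 (Actb and Pfn1) lay lower, where 10.1% did.

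**Figure D1:**
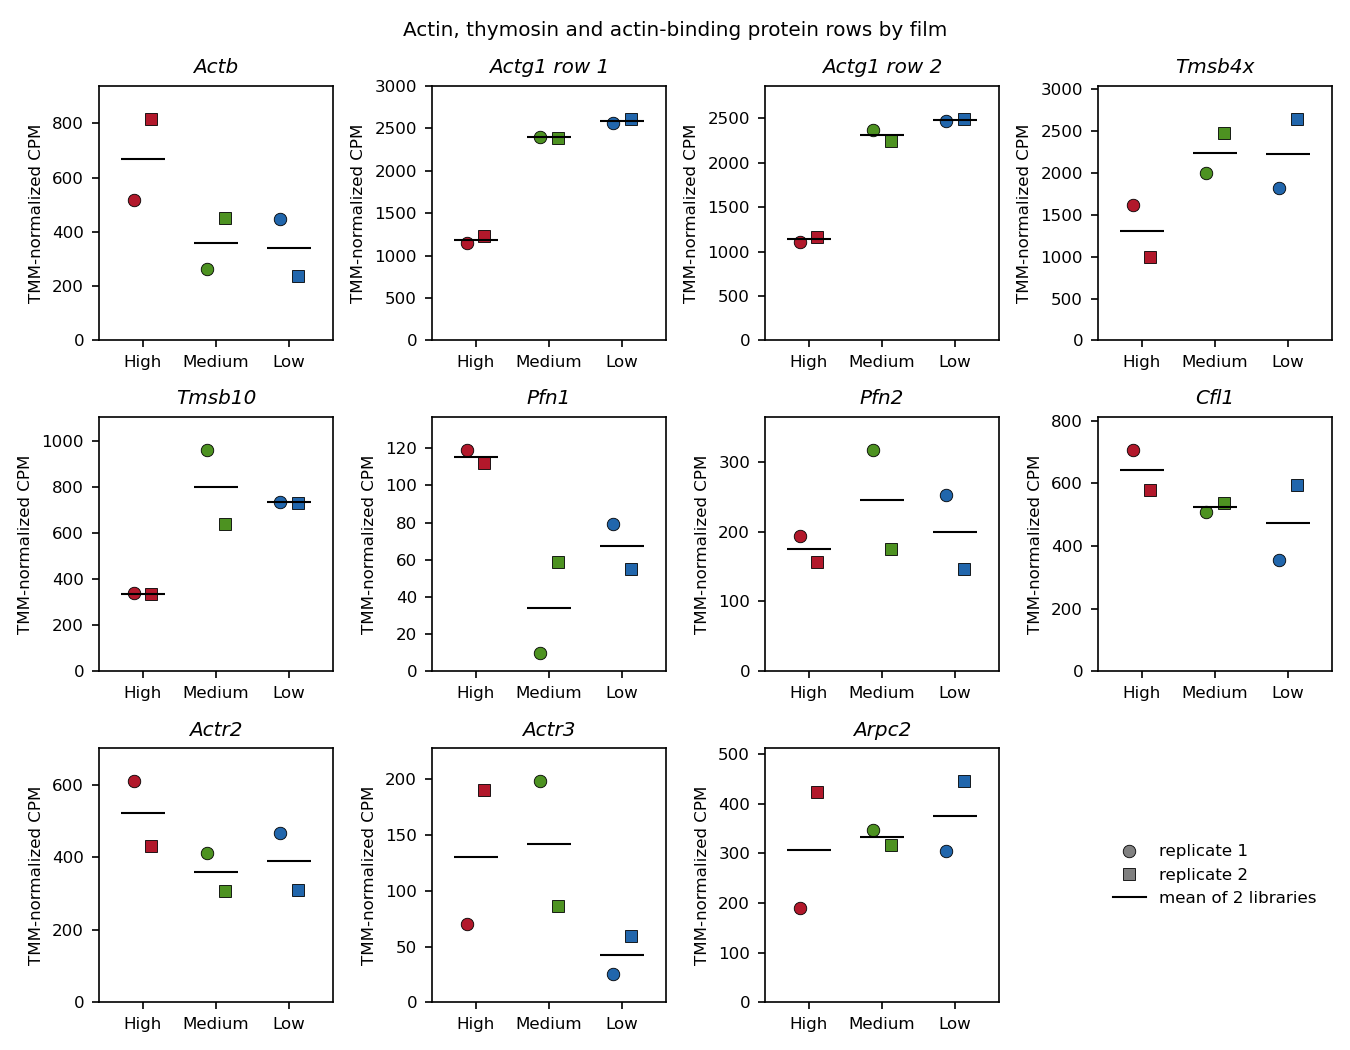
TMM-normalized CPM of the 11 member rows (vertical axis, from 0) in the 2 libraries of each film (horizontal axis); circles are replicate 1, squares replicate 2 and lines the mean. Both Actg1 rows, Tmsb10 and Tmsb4x sit above both High libraries in every Low and Medium library, and Actb and Pfn1 sit below both.

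Actg1 encodes gamma cytoplasmic actin, which builds filaments in nearly every non-muscle cell. Its first row was at 1144 and 1227 CPM on High, 2403 and 2392 on Medium, and 2561 and 2610 on Low, from 5578 and 5167, 14061 and 14644, and 17754 and 15613 counts. The replicates lay close together, and the lowest Low or Medium library stood well clear of the highest High library. The second row was at 1107 and 1167 CPM on High, 2369 and 2248 on Medium, and 2469 and 2488 on Low. Its counts were between 1.42% and 5.99% below those of the first row in every library, and because the authors counted multiple alignments the rows cannot be taken as independent measurements.

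The log2 fold change of the first Actg1 row for Low and Medium averaged against High was 1.07 (standard error 0.19, 95% interval 0.66 to 1.48, adjusted p = 0.0805 by edgeR quasi-likelihood), which ranked 17 of 7729 rows by p. It was 1.12 (adjusted p = 0.178) for Low alone and 1.02 (adjusted p = 0.258) for Medium alone. The second row gave 1.07 with the same adjusted p. The study named Actg1 among its co-upregulated genes from these same libraries, so its direction is not independent evidence here. The size of the difference was stable, from 1.01 to 1.47 over 14 alternatives, while its adjusted p ran from 4.08e-13 with DESeq2 to 0.177 and was under 0.05 in 10 of the 14. Among fits without 1 library, the first row passed without Medium replicate 1 (adjusted p = 0.0448), Medium replicate 2 (0.0137), Low replicate 1 (0.00142) or Low replicate 2 (0.00127), and did not pass without either High library. The second row passed in 9 of 14 and lay at 0.0501 without Medium replicate 1.

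Actb encodes beta cytoplasmic actin, a near-copy of gamma actin that is often used as a reference in expression assays. It was at 519 and 815 CPM on High, 263 and 452 on Medium, and 448 and 236 on Low. All 4 Low and Medium libraries lay below both High libraries, but the gap between the nearest of them, from 452 to 519 CPM, was smaller than the differences between replicates of any film. Its log2 fold change was -0.93 (standard error 0.36, 95% interval -1.74 to -0.12, adjusted p = 0.801 by edgeR quasi-likelihood). Its adjusted p was above 0.05 in 14 of 14 alternatives (from 0.0865 to 0.9999), and its log2 fold change was -1.22 without High replicate 1 and -0.57 without High replicate 2.

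The ratio of the 2 actins within a library needs no scaling between libraries. With both Actg1 rows summed, Actb had 0.230 and 0.340 counts for each Actg1 count on High, 0.0552 and 0.0975 on Medium, and 0.0891 and 0.0463 on Low. The groups did not overlap, and the highest ratio on Low and Medium films, 0.0975, lay well under the lowest on High, 0.230. On the log2 scale the ratio was -1.84 ± 0.40 (SD, n = 2) on High, -3.77 ± 0.58 on Medium and -3.96 ± 0.67 on Low. The mean over Low and Medium was 2.03 log2 units below High, a 4.08-fold difference (exact two-sided permutation p = 0.133, the smallest that 4 against 2 libraries allow, and 0.267 after Benjamini-Hochberg adjustment over 4 ratios). With the first Actg1 row alone the difference was -2.03 as well, but the levels changed. Actb then had 0.453 and 0.664 counts for each Actg1 count on High, 0.110 and 0.189 on Medium, and 0.175 and 0.0904 on Low. Reads counted in both Actg1 rows would make the summed ratio too low, so only its difference between films is read here.

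**Figure D2:**
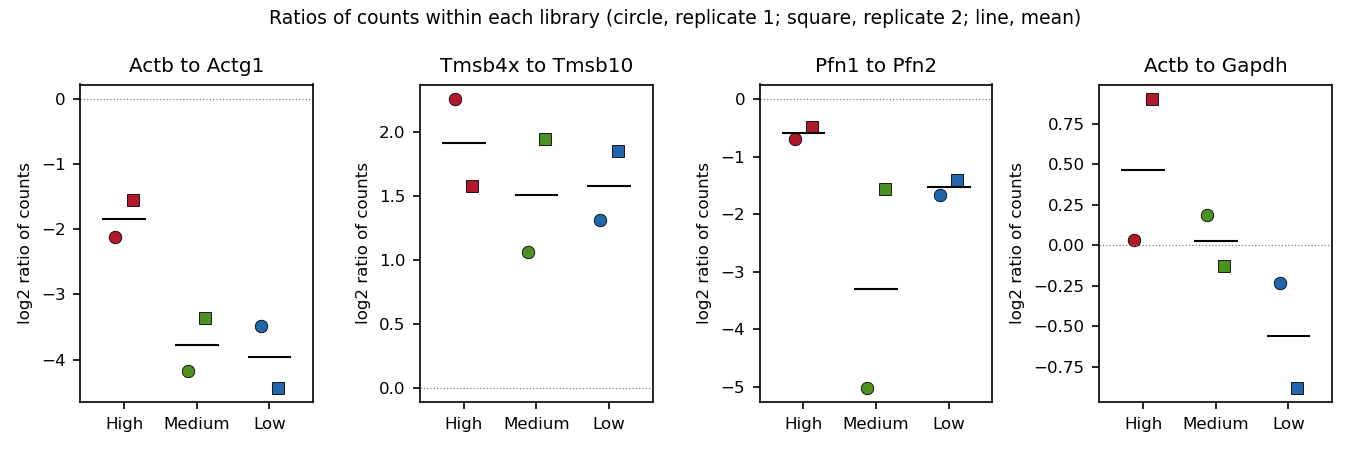
Log2 ratio of counts between pairs of genes (vertical axes) in each library by film (horizontal axes); circles are replicate 1, squares replicate 2 and lines the mean of 2 libraries. The Actb to Actg1 ratio, with both Actg1 rows summed, separates High, at -2.12 and -1.55, from all 4 Low and Medium libraries. The Tmsb4x to Tmsb10 ratio overlaps.

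The muscle actins were sparse or undetected. Acta1, Actc1 and Actg2, the actins of skeletal, cardiac and enteric smooth muscle, had 0 counts in all 6 libraries, which allows up to 3 counts in each. Acta2, the vascular smooth muscle actin, had 277 and 423 counts on High, 0 in both Medium libraries, and 0 and 120 on Low. It was lower in all 4 Low and Medium libraries (adjusted p = 0.801 by edgeR quasi-likelihood), and it was described because it was the only muscle actin with counts, which was seen in the data.

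Tmsb10 and Tmsb4x encode small beta-thymosins, each of which clasps 1 actin subunit and keeps it from polymerizing. Tmsb10 was at 339 and 336 CPM on High, 962 and 643 on Medium, and 736 and 733 on Low. Every Low and Medium library stood above both High libraries, and only the Medium replicates lay far apart. This gave a log2 fold change of 1.19 (standard error 0.27, 95% interval 0.58 to 1.79, adjusted p = 0.293 by edgeR quasi-likelihood). Over 14 alternatives it lay between 1.03 and 1.59 with an adjusted p from 0.000122 to 0.505, and it passed 0.05 in 6, among them the fits without Medium replicate 2 (0.0172), Low replicate 1 (0.0450) or Low replicate 2 (0.0320).

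Tmsb4x was at 1621 and 999.9 CPM on High, 2007 and 2480 on Medium, and 1823 and 2644 on Low. The groups did not overlap, but the lowest Low library exceeded the higher High library by less than the High replicates differed from each other. The log2 fold change was 0.77 (standard error 0.26, 95% interval 0.19 to 1.36, adjusted p = 0.778 by edgeR quasi-likelihood). It was 0.47 without High replicate 2 and 1.16 without High replicate 1, and its adjusted p was under 0.05 in 2 of 14 alternatives, with DESeq2 (0.0304) and without Low replicate 1 (0.0192).

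The ratio of Tmsb4x to Tmsb10 counts was 4.78 and 2.98 on High, 2.09 and 3.86 on Medium, and 2.48 and 3.61 on Low. The films overlapped, and the mean log2 ratio differed by -0.37 (exact two-sided permutation p = 0.400, adjusted 0.400), less than the SD of 0.48 within High. Without High replicate 1 the difference was -0.03.

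Profilins hand subunits to growing filament ends, with Pfn1 found in most tissues and Pfn2 mainly in the nervous system. Pfn1 was at 119 and 112 CPM on High, 9.74 and 59.0 on Medium, and 79.5 and 55.0 on Low. All 4 Low and Medium libraries were below both High libraries, with Medium replicate 1 far under the others at 57 counts, in the library with the fewest rows detected. Its log2 fold change was -1.27 (standard error 0.98, 95% interval -3.46 to 0.93, adjusted p = 0.851 by edgeR quasi-likelihood), and it was -0.87 without Medium replicate 1 and -2.19 without Medium replicate 2. Pfn2 was at 193 and 156 CPM on High, 316 and 175 on Medium, and 252 and 146 on Low, so that the films overlapped. Its log2 fold change was 0.34 (95% interval -0.70 to 1.38, adjusted p = 0.9997 by edgeR quasi-likelihood).

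There were 0.615 and 0.717 Pfn1 counts for each Pfn2 count on High, 0.0308 and 0.337 on Medium, and 0.315 and 0.377 on Low. The ratio was lower in all 4 Low and Medium libraries, by 1.83 on the log2 scale on average (exact two-sided permutation p = 0.133, adjusted 0.267). Medium replicate 1 set much of this mean, and without it the log2 difference was -0.96.

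Cfl1 encodes cofilin, which severs filaments and returns subunits to the pool. It was at 706 and 580 CPM on High, 510 and 538 on Medium, and 356 and 594 on Low. Both Medium libraries were below High, while Low overlapped it. This gave a log2 fold change of -0.37 (95% interval -0.999 to 0.27, adjusted p = 0.849 by edgeR quasi-likelihood), and scaling by library size without TMM gave 0.0172.

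The Arp2/3 complex nucleates branched filaments, with Actr2 and Actr3 as its actin-related core and Arpc2 as part of the scaffold that grips the mother filament. Actr2 was at 610 and 432 CPM on High, 413 and 307 on Medium, and 468 and 311 on Low. Actr3 was at 70.0 and 190 CPM on High, 198 and 86.2 on Medium, and 25.2 and 59.0 on Low. Arpc2 was at 191 and 423 CPM on High, 348 and 317 on Medium, and 304 and 445 on Low. For the mean of Low and Medium all 3 genes overlapped High, although both Medium libraries of Actr2 lay below High and both Low libraries of Actr3 lay below every other library.

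Fitted log2 fold changes were -0.48 for Actr2 (95% interval -1.18 to 0.22), -0.75 for Actr3 (-2.44 to 0.95) and 0.20 for Arpc2 (-0.66 to 1.06). The adjusted p of each was at least 0.801 by edgeR quasi-likelihood. Actr3 turned to 0.14 without High replicate 2, and Arpc2 turned to -0.26 without High replicate 1. Replicates of 1 film differed by up to 2.71-fold in Actr3 and 2.22-fold in Arpc2, so the subunits of the complex did not show a shared direction that exceeds this spread.

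**Figure D3:**
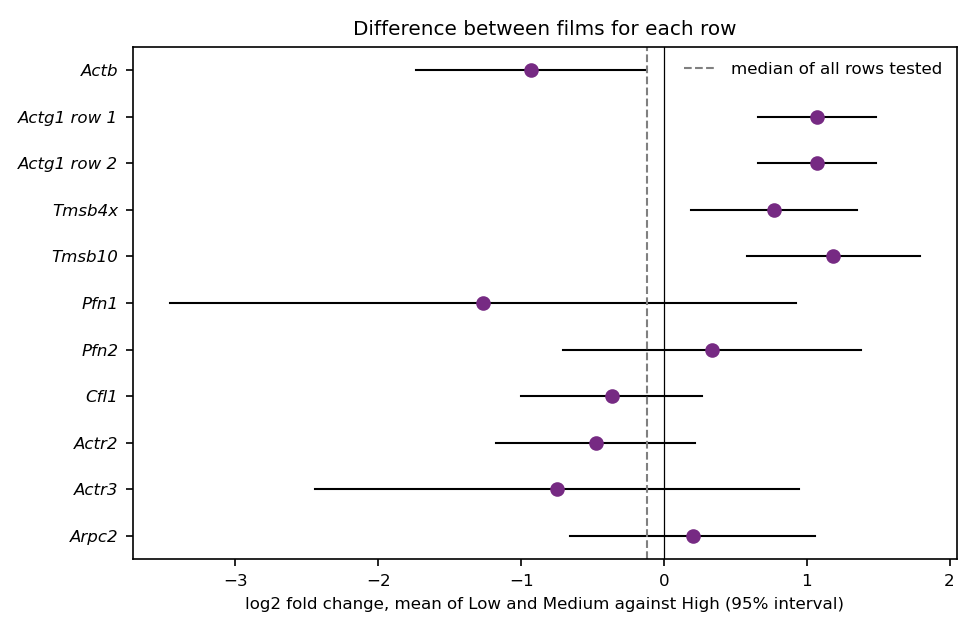
Log2 fold change (points, horizontal axis) with its 95% interval (lines) for Low and Medium averaged against High in each member row, with the median of all rows tested as a dashed line. The intervals of both Actg1 rows, Tmsb10 and Tmsb4x lie above 0 and that of Actb lies below it, and the other 6 cross 0.

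For Low alone against High, 0 member rows passed an adjusted p of 0.05 by edgeR quasi-likelihood, where 0.0518% of all rows passed. The 4 rows of Actg1, Tmsb4x and Tmsb10 had an unadjusted p under 0.05 and were higher, against 2.56% of all rows, and DESeq2 called 3 (3.88% of all rows) and limma-voom 2 (0.207%). For Medium alone against High, 0 rows passed, where 0.0129% of all rows did, and the same 4 rows had an unadjusted p under 0.05, against 2.39% of all rows, with 3 called by DESeq2 (3.97% of all rows) and 2 by limma-voom (0.181%). In each comparison the 3 rows called by DESeq2 were both Actg1 rows and Tmsb10, and the 2 called by limma-voom were both Actg1 rows. Both comparisons use the same High libraries. Tmsb10 was 1.12 higher on the log2 scale on Low and 1.25 higher on Medium, and Tmsb4x 0.77 and 0.78.

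Low and Medium were compared directly to ask whether the 2 less conductive films differed. By edgeR quasi-likelihood 0 member rows passed an adjusted p of 0.05 (0% of all rows did), and 0 had an unadjusted p under 0.05, against 1.51% of all rows. DESeq2 and limma-voom called 0 member rows as well, where they called 1.5% and 0% of all rows. The log2 difference of Low from Medium was 0.11 for the first Actg1 row (95% interval -0.35 to 0.56), -0.07 for Actb (-1.02 to 0.89), -0.01 for Tmsb4x (-0.66 to 0.64) and -0.13 for Tmsb10 (-0.79 to 0.53). Both Low libraries of Actg1 lay above both Medium libraries, as they did in 1262 of all 7729 rows tested. The interval of Actb reaches as far as its difference from High, and is too wide to show equal levels. Actr3 had the largest difference of any member, -1.75 (-3.81 to 0.31).

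The study normalized its qRT-PCR to Actb or Gapdh, so their levels were set beside 8 other genes often used for this purpose. Its NSPC qRT-PCR was made after 6 days of differentiation without growth factors. The libraries here were made at 24 h in stemness medium, so they do not test that normalization. None of the 10 passed an adjusted p of 0.05 for Low and Medium averaged against High by edgeR quasi-likelihood, and Actb alone had an unadjusted p under 0.05 (0.0278). Gapdh, a glycolytic enzyme, lay between 232 and 528 CPM over the 6 libraries with a log2 fold change of -0.18 (95% interval -0.94 to 0.59). Rplp0, a ribosomal protein, had the narrowest range, from 835 to 1328 CPM, a 1.59-fold span. Ppia, a prolyl isomerase, spanned 1.75-fold and B2m, the light chain of MHC class I, 1.76-fold, against 3.46-fold for Actb.

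Hprt1, a purine salvage enzyme, was the other reference gene that lay lower in all 4 Low and Medium libraries, with a log2 fold change of -0.94 (95% interval -2.30 to 0.42). Pgk1, a glycolytic kinase, spanned 2.06-fold, Ywhaz, a 14-3-3 protein, 2.54-fold, and Sdha, a subunit of succinate dehydrogenase, 3.08-fold. Tbp, the TATA-binding protein, was scarce, at 1.504 to 25.8 CPM. Within a library there were 1.02 and 1.87 Actb counts for each Gapdh count on High, 1.14 and 0.914 on Medium, and 0.849 and 0.543 on Low. The ranges of High and Medium overlapped, and the mean log2 ratio over Low and Medium was 0.73 below High (exact two-sided permutation p = 0.267, adjusted 0.356), and the difference was -0.30 without High replicate 2.

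**Figure D4:**
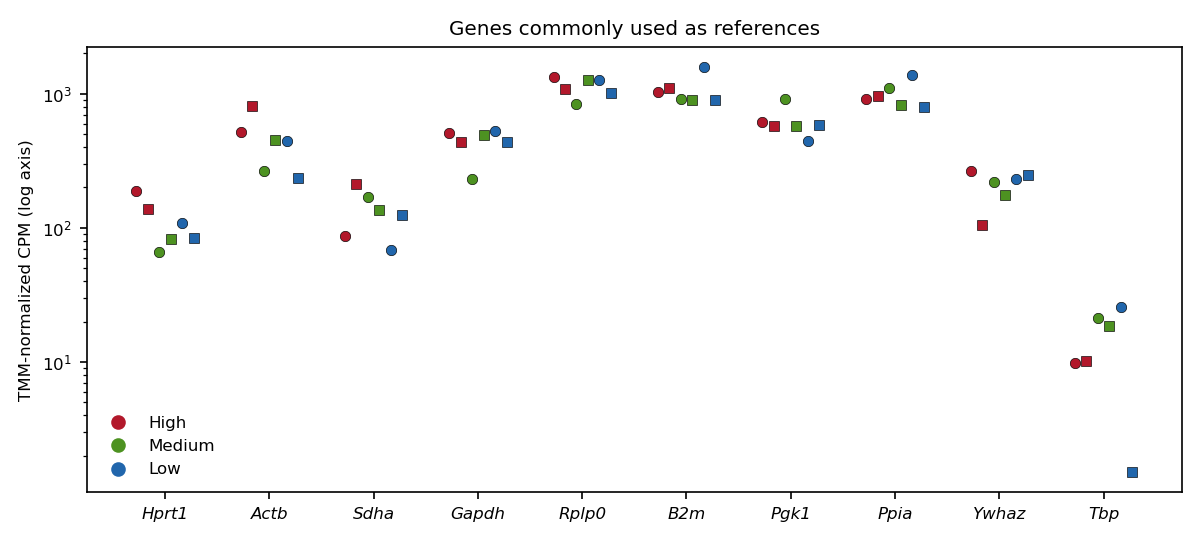
TMM-normalized CPM (vertical log axis) of 10 genes commonly used as references in the 6 libraries, ordered by their log2 fold change for Low and Medium averaged against High; colours mark the film, circles replicate 1 and squares replicate 2. Actb and Hprt1 have both High libraries on top, whereas Rplp0 spans 1.59-fold with the films mixed.

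The wider actin machinery was described from lists of 104 other symbols, of which 89 were in the tables and 77 rows were tested. By edgeR quasi-likelihood 0 of the 77 passed an adjusted p of 0.05 for Low and Medium averaged against High, and 3 higher and 3 lower rows had an unadjusted p under 0.05, near the 2.69% and 2.81% of all rows. The fold changes were positive in 39 rows and negative in 38, with a median log2 fold change of 0.09, and also 0.09 as a log2 ratio of group means with every library raised to 3 counts.

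Among the other Arp2/3 subunits, 4 of 6 rows tested had positive fold changes with a median of 0.57. Arpc5l, a variant of the smallest subunit, was at 278 and 192 CPM on High, 497 and 426 on Medium, and 341 and 497 on Low, above High in all 4 libraries (log2 fold change 0.90, unadjusted p = 0.0225 and adjusted p = 0.801 by edgeR quasi-likelihood). Arpc3, another subunit, ran from 489 to 607 CPM on High and from 591 to 929 in the other films. Arpc5l thus did not overlap between High and the other films, while Arpc3 did, and whether the subunits differ from each other was not tested.

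Crosslinking and membrane-linking proteins had 11 of 20 rows with positive fold changes. In all 4 Low and Medium libraries 2 of the 20 lay above both High libraries, where 8.06% of all rows did. Another 3 (Actn4, Zyx and Msn, named after their values were seen) lay below both, where 10.1% of all rows did. Fscn1 encodes fascin, which packs filaments into the parallel bundles of filopodia. It was at 580 and 851 CPM on High, 1659 and 1330 on Medium, and 1571 and 1178 on Low, higher in all 4 libraries, with a log2 fold change of 1.002 (standard error 0.26, unadjusted p = 0.00285, adjusted p = 0.468 by edgeR quasi-likelihood). Marcks, which tethers filaments to the plasma membrane, was at 403 and 154 CPM on High, 363 and 816 on Medium, and 763 and 705 on Low. Here Medium replicate 1 fell within the High range.

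Capping proteins, which block filament ends, had negative fold changes in 7 of 7 rows tested, with a median log2 fold change of -0.61. Over all 7729 rows tested, 4181 were negative and the median was -0.12. Of the 7 capping rows, 1 had an unadjusted p under 0.05 and 0 passed adjustment by edgeR quasi-likelihood. For Low alone, and again for Medium alone, 1 of the 7 was positive. Capza2, an alpha subunit of the barbed-end capper, was at 283 and 375 CPM on High, 271 and 228 on Medium, and 145 and 120 on Low (log2 fold change -0.86, unadjusted p = 0.0439). Its paralog Capza1 was at 264 and 404 CPM on High, 97.1 and 198 on Medium, and 206 and 244 on Low. Both alpha subunits thus lay below High in all 4 libraries, the only 2 of the 7 rows to do so, where 10.1% of all rows did.

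Tropomyosins, which coat filaments, and non-muscle myosin II, which pulls on them, were listed together with Cnn3 and Cald1. Positive fold changes were found in 9 of the 12 rows, with a median of 0.49, beside 3548 of all 7729 rows tested. Cnn3 (-0.18) and Cald1 (-1.16) were negative. Myh9, a myosin II heavy chain, was at 225 and 307 CPM on High, 466 and 367 on Medium, and 454 and 339 on Low. Tpm1 was at 52.9 and 89.6 CPM on High, 95.2 and 223 on Medium, and 136 and 188 on Low. Both were higher in all 4 libraries, the only 2 of the 12 rows to be so, where 8.06% of all rows were. Their unadjusted p was 0.0885 and 0.103 by edgeR quasi-likelihood.

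Nucleation-promoting factors and formins, which start or elongate filaments, were split 7 to 7. Nckap1, a core subunit of the WAVE complex, was at 322 and 648 CPM on High, 73.1 and 190 on Medium, and 470 and 242 on Low, while Abi2 of the same complex was at 185 and 126, 221 and 391, and 243 and 313 CPM. Thus Nckap1 overlapped High through Low replicate 1, and Abi2 lay above High throughout, with unadjusted p of 0.0309 and 0.0611. The other monomer-binding and severing proteins had 0 of 12 rows with an unadjusted p under 0.05, Coro1c, a coronin, with a log2 fold change of 0.36 and Twf2, a twinfilin, with -1.87 from 0 to 88.6 CPM.

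SRF switches on actin genes when free actin subunits are scarce, through cofactors that bind these subunits. Srf itself was at 134 and 128 CPM on High, 137 and 132 on Medium, and 199 and 88.2 on Low, and its log2 fold change was 0.09 (95% interval -1.19 to 1.37). Of the SRF list, 10 of 16 symbols were in the tables and 7 rows were tested, 1 with a positive and 6 with negative fold changes, and 4 of the 7 had no library above 3 counts in at least 1 film. Vcl, the adhesion protein vinculin, was at 199 and 283 CPM on High, 319 and 145 on Medium, and 120 and 103 on Low, with Medium replicate 1 above High and the other 3 below it. None passed an adjusted p of 0.05, and 1 (Acta2, lower) had an unadjusted p under 0.05 by edgeR quasi-likelihood.

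**Figure D5:**
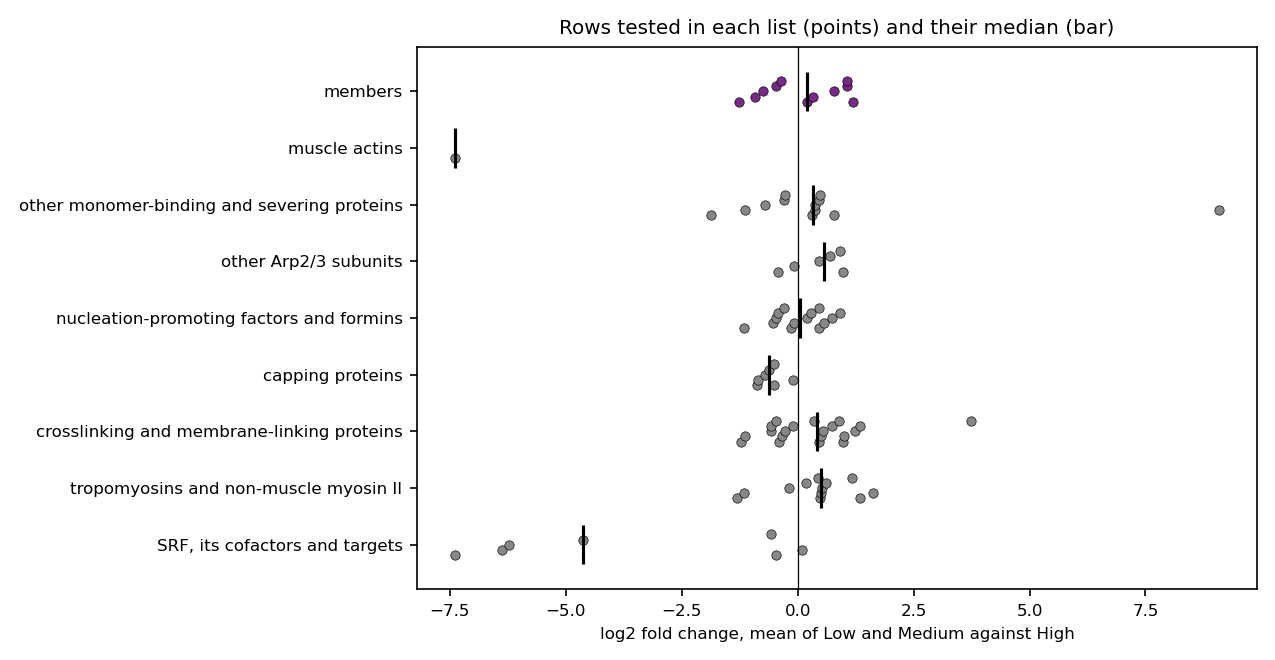
Log2 fold change for Low and Medium averaged against High (horizontal axis) of each row tested (points) in the member set and in 8 lists of other actin cytoskeleton genes, with the median of each list as a bar (that of the SRF list rests on 4 of 7 rows with near-empty groups). All 7 capping protein rows lie below 0, and points beyond 5 on either side are genes with 0 counts in whole groups, whose fitted values are no measure of size.

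The patterns most like those of the actins were found by the root mean square difference of centred log2 CPM over the 6 libraries, among the other 4308 rows with a mean log CPM of at least 5. Beside its own second row, the first Actg1 row lay closest to Gas6, a ligand of TAM receptors (0.07) and Olig2, a transcription factor of progenitors and the oligodendrocyte lineage (0.09). Among the members Tmsb10 was the nearest to it (0.20), then Tmsb4x (0.32). Actb lay closest to Sf1, a splicing factor (0.16), Ap3d1, an adaptor of vesicle coats (0.20), and Ggnbp2 (0.20). Actb and the first Actg1 row themselves lay 1.04 apart on this measure, so a gene this near to either could not be as near to the other.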

How the data were processed

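QuantSeq 3′ libraries of 2 samples per film were sequenced as single-end reads, aligned by the authors with Bowtie2 and counted per gene with Bedtools, unique and multiple alignments together. The submitters' processing notes name rn6, and the annotation and tool versions are not given in the sources used here. The deposited values are raw counts, 1 table of 17048 rows per library, and 0 columns of other samples were present. Rows repeating a symbol were kept apart. Reads come from transcript ends and were not corrected for length, so levels were compared within a gene. Multiple alignments make actins uncertain, and without molecular identifiers amplified copies cannot be separated.

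With R 4.3.3, rows were filtered with filterByExpr (7729 left), TMM-normalized and tested with the quasi-likelihood test of edgeR 4.0.16 over all 6 libraries with 1 mean per film, Benjamini-Hochberg adjustment and a threshold of 0.05. Standard errors are the log2 fold change over the root of F. The common dispersion was 2.04. DESeq2 1.42.0, limma-voom (limma 3.58.1), other scalings and filters, a replicate block, fewer libraries and each library left out were alternatives.

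Named rows beyond the members were those with an adjusted p under 0.05, the 2 lowest unadjusted p per list at a mean log CPM of at least 5, all reference genes, and the 3 nearest patterns. The members and lists were chosen with earlier results of these data known. Promoters come from RefSeq on GRCr8. A further list of actin regulators is not reported here.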

Additional observations from a re-analysis of the deposited data

How the results depend on the processing

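For Low and Medium averaged against High, member rows past an adjusted p of 0.05 numbered 0 in the reported fit, with DESeq2 size factors and with TMM without ribosomal RNA rows. They numbered 2 with library sizes alone, with a mean count of at least 10 and with limma-voom, 3 without a filter, and 4 with DESeq2. Calls over all rows, 10 as reported, were then 14, 56, 23, 68 and 375, and without 1 library 34 to 242. Without 1 library they ran from 0 (without either High library) through 1 (Medium replicate 1) and 3 (Medium replicate 2 or Low replicate 2) to 4 (Low replicate 1). For Low against High, 0 as reported, member rows numbered 2 without a filter, with a mean count of at least 10 and with limma-voom (34, 30 and 16 over all rows). They numbered 3 with DESeq2 (300 over all rows). For Medium against High, 0 as reported, member rows in the same settings numbered 2, 2 and 2 (48, 40 and 14 over all rows). With DESeq2 they numbered 3 (307 over all rows). Low against Medium stayed at 0 in all alternatives run. Every row called was of Actg1, Tmsb10 or Tmsb4x, and both Actg1 rows were among them wherever 2 or more were called.

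With the replicate number as a block, 3 member rows passed for the mean of Low and Medium (both Actg1 rows and Tmsb10) and 2 each for Low and Medium alone, while calls over all rows numbered 57, 30 and 39. The labels tie the numbers to no litter or day, and differences between replicates correlated at 0.0055, 0.00015 and 0.014 between films, so the numbers were not taken as pairs.

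Of the 11 member rows, 8 had 1 direction in all 14 alternatives. Cfl1 was 0.0172 with library sizes alone, a scaling that moved the median of all rows from -0.12 to 0.26, and the fits without 1 library ran from -1.29 to 0.14 for Actr3 (positive without High replicate 2) and from -0.26 to 0.89 for Arpc2 (negative without High replicate 1). The cause was not tested. Without 1 library the log2 difference in ratio ran from -2.31 to -1.75 (Actb to Actg1), -0.72 to -0.03 (Tmsb4x to Tmsb10), -2.16 to -0.96 (Pfn1 to Pfn2) and -1.17 to -0.30 (Actb to Gapdh). With 2 libraries a film and a wide spread, a p above the threshold does not show equal levels.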
